A study of Mus musculus with 2 samples.

Results

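The MHC class I pathway displays peptides made inside a cell to CD8 T cells. A heavy chain pairs with beta-2-microglobulin in the endoplasmic reticulum, proteasomes cut the peptides, the TAP transporter brings them in, and tapasin holds the empty complex beside TAP until a peptide is loaded. NLRC5 is a transactivator of class I genes, and interferons raise most genes of the pathway. Endothelial cells, which line blood vessels, are known to carry class I molecules. The 9 genes described here were taken by symbol from a table of 53465 mouse genes: the classical heavy chains H2-K1 and H2-D1, B2m, the transporter subunits Tap1 and Tap2, tapasin (Tapbp), the immunoproteasome subunits Psmb8 and Psmb9, and Nlrc5.

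Levels were measured in endothelial cells isolated from C57Bl/6 mice of the tie2-cre genotype, which both groups share, treated with GFP in the control group and with NeuroD1, a transcription factor of neuronal differentiation, in the other. Each group had 1 library. The labels' protocols state that cells from 3 mice were collected and 10000 cells were lysed, and RNA was primed with DRUG-seq primers, which tag the 3' end of transcripts. The labels used here give no vector, age or time for these animals, and whether 3 mice stand behind each library is not stated. Tie2 is known to be active in blood-forming cells as well as in endothelium. With 1 library in each group, no difference could be set against replicate spread, no p-value was computed, and every comparison is one between these libraries.

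Values are FPKM, reads scaled by exon length and library, and reads were recovered from them. Recovered reads came to 2011126 in the GFP and 2001425 in the NeuroD1 library, of which 52.3% and 57.4% lay in 19 genes above 1000 FPKM, and the median protein-coding gene held 24 and 20 reads. Neurod1 stood at 0.664 FPKM in GFP and 182 in NeuroD1. Reads were also present in receptor genes for odours, pheromones and taste (chemoreceptor genes), which endothelial cells are not known to use. Their 1515 genes had a median of 1.54 FPKM in GFP and 1.404 in NeuroD1, and a 95th percentile of 4.39 and 4.79 FPKM, which serves below as a mark of the level that such genes reach. The 15 endothelial markers summed to 238 and 265 FPKM, with Cldn5 at 33.9 and 31.5 FPKM. None of the markers of endothelium or of other cell types was at 0 in either library.

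Promoters of the genes the results turn on are shown first, because the heavy chains and B2m carry the same kinds of element and Tap1 shares its promoter with Psmb9. The RefSeq table (GRCm38.p6) held 7 of the 9 genes, all but Tap2 and Nlrc5. Windows run from 250 bases before the start site to 50 bases after it, 5' to 3', and the first window listed for a gene is used. Capitals mark matches on either strand to an E box (CAGNTG, the kind of site NeuroD1 binds), an IRF element (GAANNGAAA, or the same with another A after GAA), the NF-kB consensus, the CRE core of the X2 box (TGACG) and a CCAAT box (CCAAT). The motifs were chosen with the sequences in view, and a match is a description of letters, not a bound site.
H2-K1 (chr17:34000298-34000597, minus strand): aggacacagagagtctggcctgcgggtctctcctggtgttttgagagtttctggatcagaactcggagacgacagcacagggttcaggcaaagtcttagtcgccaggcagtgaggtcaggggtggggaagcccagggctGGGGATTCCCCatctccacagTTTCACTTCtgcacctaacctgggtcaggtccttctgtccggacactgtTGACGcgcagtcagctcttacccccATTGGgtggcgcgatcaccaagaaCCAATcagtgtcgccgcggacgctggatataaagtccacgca
H2-D1 (chr17:35262844-35263143, plus strand): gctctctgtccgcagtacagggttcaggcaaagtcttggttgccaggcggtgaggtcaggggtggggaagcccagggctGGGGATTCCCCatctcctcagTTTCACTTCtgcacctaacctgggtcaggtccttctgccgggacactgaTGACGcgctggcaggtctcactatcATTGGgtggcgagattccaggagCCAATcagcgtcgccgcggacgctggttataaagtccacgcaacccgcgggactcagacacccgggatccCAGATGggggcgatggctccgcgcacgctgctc
B2m (chr2:122147437-122147736, plus strand): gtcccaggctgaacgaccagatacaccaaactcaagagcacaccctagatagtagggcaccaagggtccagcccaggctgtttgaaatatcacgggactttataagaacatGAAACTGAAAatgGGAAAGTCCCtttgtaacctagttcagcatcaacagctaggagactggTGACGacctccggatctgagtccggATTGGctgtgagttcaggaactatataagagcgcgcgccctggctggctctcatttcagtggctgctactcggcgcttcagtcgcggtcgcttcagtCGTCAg
Tap1 (chr17:34187306-34187605, plus strand): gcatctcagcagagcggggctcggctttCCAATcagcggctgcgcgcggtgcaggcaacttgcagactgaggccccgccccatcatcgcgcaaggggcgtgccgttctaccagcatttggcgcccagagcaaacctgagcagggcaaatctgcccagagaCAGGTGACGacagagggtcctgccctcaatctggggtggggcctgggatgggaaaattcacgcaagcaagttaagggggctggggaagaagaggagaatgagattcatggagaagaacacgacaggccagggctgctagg
Psmb8 (chr17:34197945-34198244, plus strand): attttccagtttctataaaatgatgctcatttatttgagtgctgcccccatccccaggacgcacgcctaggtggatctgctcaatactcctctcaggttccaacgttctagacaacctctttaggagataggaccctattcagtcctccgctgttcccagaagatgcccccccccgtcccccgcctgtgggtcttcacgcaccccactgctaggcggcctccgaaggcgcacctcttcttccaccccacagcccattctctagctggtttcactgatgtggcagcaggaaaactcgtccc

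The windows of H2-K1 and H2-D1 aligned over 239 bases, of which 211 (88.3%) were equal. Both hold the NF-kB match, the IRF element, TGACG and a pair of CCAAT boxes in the same order, and B2m holds each of these motifs too. An IRF element was present in 3 of the 7 windows, against 10.4% of 27025 promoters, and the NF-kB consensus in the same 3, against 8.18%. These 3 include the alike windows of H2-K1 and H2-D1, so they are not separate occurrences. TGACG was found in 5 of 7, against 21.0%, and CCAAT in 6 of 7, against 37.9%. The E box was found in 3 of 7 (H2-D1, Tap1 and Psmb9), against 51.1% of all promoters, and in Tap1 it overlaps TGACG. The Tap1 window shares 275 bases with that of Psmb9, read from the other strand, and the start sites of these divergent genes lie 226 bases apart. Their E box, TGACG and CCAAT matches are the same bases, so the counts above hold each of these sites once for either gene. The Psmb8 window held none of the 5 motifs. Its start site lies 474 bases inside the GENCODE gene, so bases before the annotated gene start are not in the window, and the start sites of H2-D1, Psmb9 and Tapbp lie 364, 434 and 3579 bases inside theirs.

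None of the 9 genes was 2-fold higher or lower in NeuroD1. All 9 passed the minimum of 5 FPKM in one library or both, and the threshold was a difference of 1 in log2(FPKM + 1), which makes changes of low genes look smaller than they are. Among 6408 protein-coding genes past the same minimum, 6.55% were past this threshold, 3.25% higher and 3.31% lower. Over all 14679 genes of any type these shares were 12.9% and 15.6%. Differences of the 9 genes, as log2(FPKM + 1) in NeuroD1 minus GFP, ran from -0.59 to 0.44 with a median of 0.02, against -0.02 over 20697 protein-coding genes at 1 FPKM or more in one library or both. Of the 9, 5 lay above 0 and 4 below, where 48.35% of those protein-coding genes lay above 0. In bulk RNA, fewer cells of a type and less RNA per cell cannot be told apart.

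**Figure D1:**
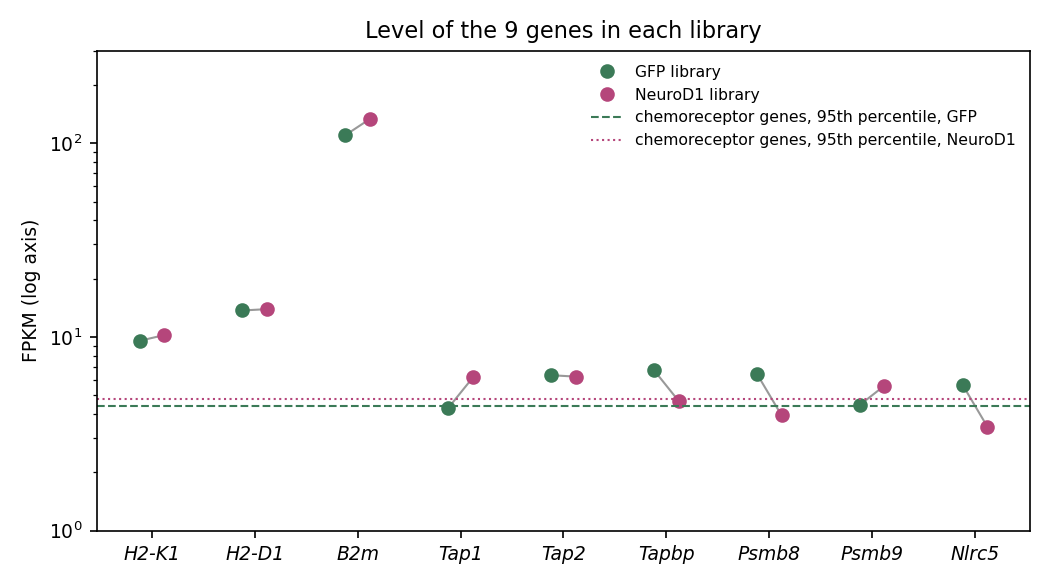
FPKM (log axis) of each gene in the GFP and the NeuroD1 library, 1 point per library, with dashed and dotted lines at the 95th percentile of chemoreceptor genes in each. B2m stands near 100 FPKM in both libraries, the heavy chains lie between 9.55 and 13.9 FPKM, and the other 6 genes lie close to the lines.

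The exact 95% interval of each FPKM ratio was computed from the reads and covers counting error only, as copies made by PCR could not be separated from molecules. The interval excluded 1 for 2 of the 9 genes, B2m above 1 and Nlrc5 below 1. Among 14791 protein-coding genes with at least 20 reads over both libraries, 12.1% of intervals excluded 1 (5.93% above and 6.22% below), and among 653 chemoreceptor genes 10.7% did. With 9 genes, a count of 2 is not far from these shares. Psmb8 is counted here at the fewest reads its values allow. At its middle or its most reads, 2 intervals lay below 1 in place of 1.

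**Figure D2:**
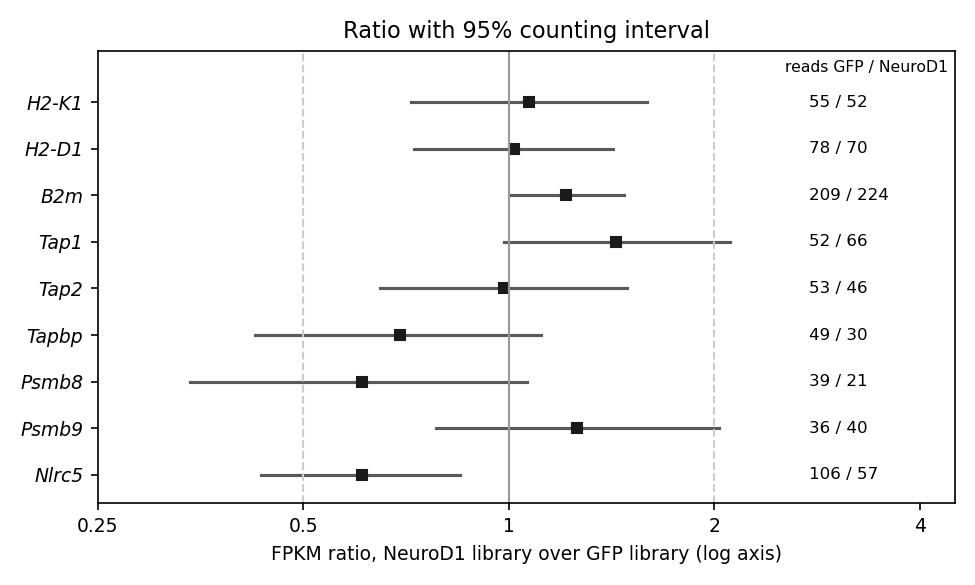
FPKM ratio of the NeuroD1 over the GFP library (log axis) as squares, with exact 95% counting intervals as lines and the recovered reads at the right. The Nlrc5 interval (0.433 to 0.848) lies below 1 and that of B2m (1.001 to 1.47) barely above it, while the other 7 hold 1. Psmb8 is drawn at the fewest reads its values allow.

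The heavy chains carry the peptide groove and read nearly level between the libraries. On GRCm38, H2-K1 (ENSMUSG00000061232, minus strand of chromosome 17, 33996017 to 34000347) stood at 9.55 FPKM in GFP and 10.2 in NeuroD1, from 55 and 52 reads. Its ratio was 1.07 (interval 0.719 to 1.59). H2-D1 (ENSMUSG00000073411, chromosome 17, 35262730 to 35267499, plus strand) stood at 13.7 and 13.9 FPKM, from 78 and 70 reads, with a ratio of 1.02 (interval 0.725 to 1.42). Each lay above 96.1% of protein-coding genes or more in both libraries. Both intervals held 1. They leave room for changes of up to about 1.6-fold, so equal levels are not shown.

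H2-K1 and H2-D1 belong to a family of closely related genes, so part of their reads could be shared or lost in mapping. Of the 50-base stretches of the longest H2-K1 coding transcript, 8.79% also occurred in transcripts of other genes, most often H2-D1. For H2-D1 the share was 14.3%, most often with H2-Q1. Over the last 500 bases, where a 3' tag would lie, it was 2.40% and 8.60%. At 100 bases the shares over the whole transcript were 0% and 4.64%. The read length and the handling of reads with several matches are not given in the sources used here.

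B2m, the light chain that every class I heavy chain needs, was by far the most abundant of the 9 (ENSMUSG00000060802, chromosome 2, 122147686 to 122153083, plus strand). It stood at 110.02 FPKM in GFP and 134 in NeuroD1, from 209 and 224 reads, and ranked 24 among 22040 protein-coding genes in each library. The ratio was 1.21 (interval 1.001 to 1.47). Genes of such levels were mostly higher in NeuroD1: of 24 other protein-coding genes within 2-fold of the mean FPKM of B2m, 22 lay above 0, their median log2 difference was 0.32, and 15 exceeded the 0.28 of B2m. Once ratios were divided by the median ratio of protein-coding genes, the interval stayed above 1 (1.01 to 1.49). It held 1 under 3 other scalings. The same sum of FPKM gave 0.850 to 1.25. The same sum of reads of genes at or under 1000 FPKM gave 0.994 to 1.46. With the median of genes of like mean FPKM (1 of 10 equal groups by level) subtracted, it was 0.935 to 1.38. For B2m that group is broad: it holds all genes from a mean of 6.97 FPKM up. Its median was 0.10, below the 0.32 of the 24 genes nearer the level of B2m. Levels are per exon length, and reads primed at the 3' end need not grow with length: B2m, with 860 exon bases, is favoured on this scale over H2-D1, with 2579. No 50-base stretch of its transcript occurred in another gene. The summed level of the classical heavy chains was 23.2 FPKM in GFP and 24.1 in NeuroD1, so B2m stood at 4.73 and 5.53 times that sum.

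**Figure D3:**
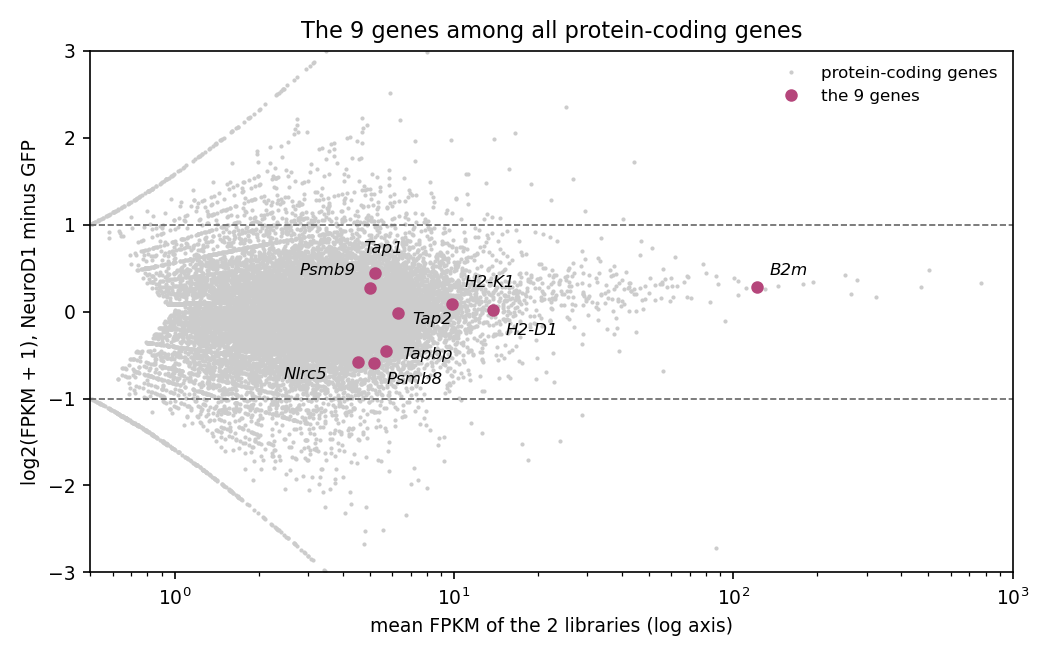
Difference in log2(FPKM + 1), NeuroD1 minus GFP, against mean FPKM of both libraries (log axis), for protein-coding genes at 1 FPKM or more in one library or both (grey, 30 lie outside the axes) and the 9 genes. All 9 lie between the dashed lines at -1 and 1, and B2m lies among abundant genes that are mostly above 0.

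Peptide transport was read from Tap1 and Tap2, the paired subunits of the TAP pump. Tap1 (ENSMUSG00000037321, chromosome 17, 34187553 to 34197225, plus strand) stood at 4.30 FPKM in GFP and 6.18 in NeuroD1, from 52 and 66 reads. It had the highest difference of the 9, 0.44, with a ratio of 1.44 and an interval (0.984 to 2.11) that held 1. Its GFP level lay under the chemoreceptor 95th percentile and its NeuroD1 level above it. Tap2 (ENSMUSG00000024339, chromosome 17, 34203527 to 34216321, plus strand) was nearly level at 6.35 and 6.24 FPKM, from 53 and 46 reads, with a ratio of 0.983 (interval 0.648 to 1.49). Tap1 thus stood at 0.677 times the level of Tap2 in GFP and at 0.991 times in NeuroD1.

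Tapasin, the chaperone that holds empty class I complexes at TAP, read lower in NeuroD1 without its interval excluding 1. Tapbp (ENSMUSG00000024308, chromosome 17, 33915899 to 33929292, plus strand) stood at 6.73 FPKM in GFP and 4.67 in NeuroD1, from 49 and 30 reads. Its ratio was 0.693 (interval 0.425 to 1.11), and the interval fell below 1 (0.361 to 0.946) once the sums of FPKM were made equal, as did 16.0% of those of protein-coding genes. Its GFP level lay above the chemoreceptor 95th percentile of that library (4.39 FPKM). Its NeuroD1 level lay just below the mark of NeuroD1 (4.79 FPKM), though above that of GFP. Of its annotated exon bases, 24.9% overlap the antisense gene Gm19412 and 4.11% overlap Zbtb22 on the same strand, and without a stated use of strand reads of the antisense part cannot be told apart. Over the last 500 bases of its longest coding transcript, no 50-base stretch occurred in another gene.

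The immunoproteasome subunits, which replace constitutive ones and favour peptides that fit class I grooves, pointed in different directions. Psmb8 (ENSMUSG00000024338, chromosome 17, 34197721 to 34201454, plus strand) stood at 6.45 FPKM in GFP and 3.94 in NeuroD1, a ratio of 0.610 and the lowest difference of the 9, -0.59. Its values allow 39 and 21, 52 and 28, or 65 and 35 reads, because the authors' exon length for it is not known. The interval was 0.341 to 1.06 at the fewest of these, 0.371 to 0.984 at the middle pair and 0.392 to 0.934 at the most. Psmb8 too lay above the chemoreceptor 95th percentile in GFP and below it in NeuroD1. Psmb9 (ENSMUSG00000096727, chromosome 17, 34181987 to 34187764, read from the minus strand) had levels of 4.45 and 5.61 FPKM, from 36 and 40 reads, with a ratio of 1.26 (interval 0.782 to 2.03). Psmb9 was thus at 0.690 times the level of Psmb8 in GFP and at 1.42 times in NeuroD1. Psmb10, the remaining inducible subunit, had 24 reads in each library and stood at 6.37 and 7.22 FPKM.

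These genes are neighbours in the class II region of chromosome 17. In order they are Psmb9, Tap1, Psmb8 and Tap2, and in NeuroD1 their ratios ran 1.26, 1.44, 0.610 and 0.983. All 4 intervals held 1, that of Psmb8 only at the fewest reads its values allow. Tap1 and Psmb9 share 212 annotated exon bases on opposite strands, which is 3.87% of Tap1 and 5.79% of Psmb9. The antisense gene Gm20496 covers 14.7% of Psmb8 exon bases, and Gm15821 covers 14.1% of those of Tap2. Over the last 500 bases, the share of 50-base stretches found in another gene was 1.8% for Psmb8 and 0% for Tap1, Tap2 and Psmb9.

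**Figure D4:**
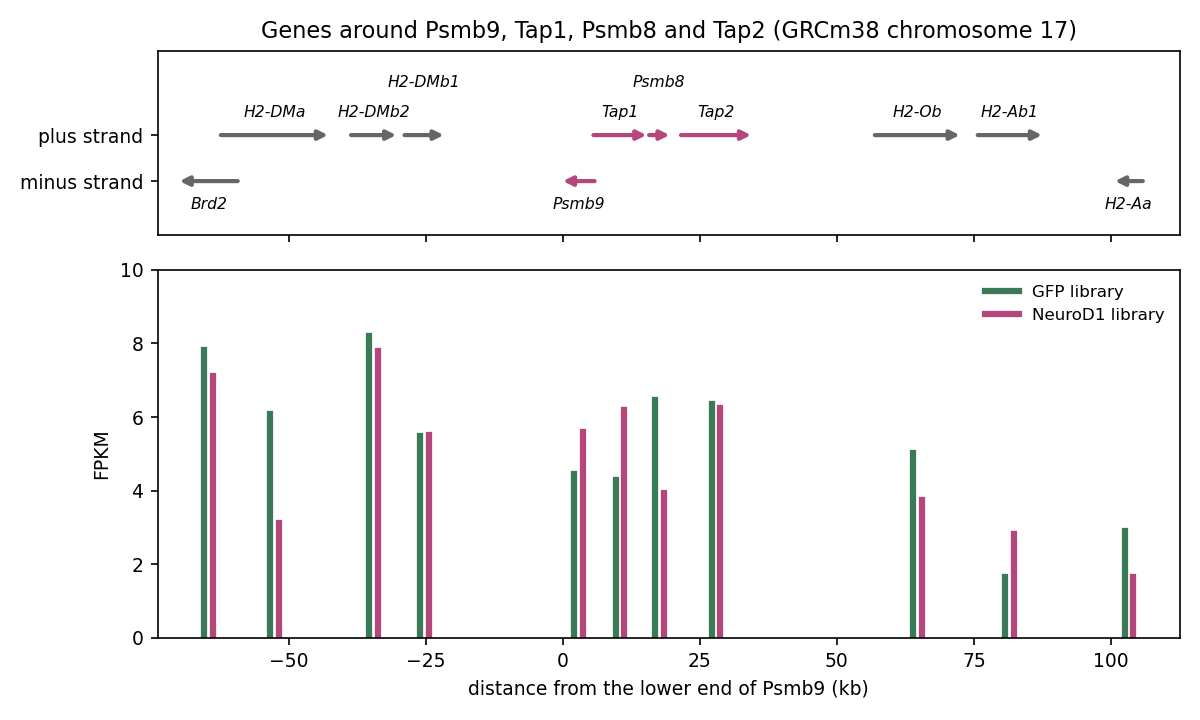
Protein-coding genes around the block, drawn to scale by distance from the lower end of Psmb9 (arrows, upper panel; the 4 genes in colour; Gm15821, which lies within Tap2, is not drawn) and their FPKM in each library (bars, lower panel). Psmb9 and Tap1 are higher and Psmb8 lower in the NeuroD1 library, and Tap2 is nearly level.

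Nlrc5, the class I transactivator, was the gene of the 9 whose reads differed most between the libraries relative to counting error. It lies on chromosome 8 (ENSMUSG00000074151, 94434356 to 94527272, plus strand) and stood at 5.65 FPKM in GFP and 3.44 in NeuroD1, from 106 and 57 reads. The ratio was 0.609 (interval 0.433 to 0.848), and it stayed below 1 at each scaling run, with the lowest interval at 0.368 to 0.720 for the same sum of FPKM. Its GFP level was above the chemoreceptor 95th percentile and its NeuroD1 level below it. Over its 8493 exon bases, the chemoreceptor median would give 29.0 reads in GFP and 23.3 reads in NeuroD1. The difference of -0.58 lay inside the 5th to 95th percentile range of protein-coding genes in its group of like mean FPKM, -0.68 to 0.70. No 50-base stretch of its longest coding transcript occurred in another gene.

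Other genes of the pathway were taken from 5 lists of 105 genes in all. Of the 94 with at least 20 reads, the intervals of 3 lay above 1 and of 6 below 1, or 9.57%, which is near the 12.1% of protein-coding genes. Among 28 other class I and class I-like heavy chains, none at 5 FPKM or more passed the threshold of 1 in log2(FPKM + 1). The median difference was -0.14, and 1 interval of 19 lay above 1. That gene was H2-Q6, a Qa-region heavy chain, at 6.73 FPKM in GFP and 11.3 in NeuroD1 (ratio 1.68, interval 1.04 to 2.74). H2-Q7, which resembles it closely, stood at 8.70 and 6.13 FPKM (named with its values in view). Fcgrt, the neonatal Fc receptor that also pairs with B2m, stood at 9.26 and 10.5 FPKM, and Procr, the endothelial protein C receptor, at 8.25 and 10.6 FPKM. H2-M9 and H60b had the largest differences, 1.10 and -0.97, from 2 and 7 reads and from 7 and 2 reads, both under 5 FPKM.

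Among 21 further genes of peptide generation, transport and folding, the median difference was 0.13 (-0.05 with equal sums of FPKM). None passed the threshold of 1 in log2(FPKM + 1). The interval of Canx, the chaperone calnexin that folds new heavy chains, lay below 1, at 12.5 FPKM in GFP and 7.43 in NeuroD1 (130 and 68 reads, ratio 0.592, interval 0.435 to 0.8004). Tpp2, a cytosolic peptidase, also read lower (3.82 and 2.54 FPKM, interval 0.460 to 0.956). Sec61g, a subunit of the protein channel of the endoplasmic reticulum, read higher (2.57 and 5.41 FPKM, interval 1.06 to 4.36). Its FPKM ratio was 2.10, while its difference in log2(FPKM + 1) was 0.84. Psme1, a subunit of the PA28 proteasome activator, stood at 23.98 and 28.3 FPKM (interval 0.909 to 1.54), and calreticulin (Calr), which belongs to the loading complex, at 17.4 and 15.5 FPKM (interval 0.663 to 1.19).

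The 15 genes of the constitutive proteasome list had a median of -0.05. Among those at 5 FPKM or more in one library or both, 1 passed the threshold of 1 in log2(FPKM + 1) in each direction. Psmb6, the subunit that Psmb9 replaces, stood at 4.11 FPKM in GFP and 9.31 in NeuroD1 (17 and 34 reads, ratio 2.27, interval 1.23 to 4.32). Psma5, a structural subunit, stood at 7.20 and 1.94 FPKM (21 and 5 reads, ratio 0.270, interval 0.0795 to 0.735). Psmb5, the subunit that Psmb8 replaces, was near level at 10.07 and 9.70 FPKM. Psmb8 was at 0.641 times the level of Psmb5 in GFP and 0.406 times in NeuroD1, and Psmb9 at 1.08 and 0.602 times that of Psmb6. Psmb10 went the other way against Psmb7, the subunit it replaces, at 2.41 times in GFP and 3.70 times in NeuroD1 (added with its values in view). No counting interval was computed for these ratios. Levels are per exon length, and Psmb5 has 899 exon bases against at least 2736 for Psmb8. Which of a pair is more abundant is thus not shown. Psma3 and Psmb3, the most abundant of the list, stood at 20.3 and 18.4 FPKM and at 12.4 and 12.9 FPKM.

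The 27 regulators had a median of -0.24, with none past 2-fold among those at 5 FPKM or more. Of them, 9 lay above 0 and 18 below, where 48.35% of measured protein-coding genes lay above 0. Both chains of the interferon gamma receptor read lower in NeuroD1. Ifngr1 stood at 4.13 FPKM in GFP and 1.44 in NeuroD1 (26 and 8 reads, ratio 0.349, interval 0.136 to 0.793), and Ifngr2 at 6.42 and 3.87 FPKM (47 and 25 reads, ratio 0.602, interval 0.355 to 0.999). Ifngr1 lay under the chemoreceptor 95th percentile in both libraries, and in NeuroD1 at 1.03 times the chemoreceptor median. The Ifngr2 interval held 1 once ratios were divided by the median ratio of protein-coding genes. No interval of the list lay above 1. Irf1, an interferon-induced activator of class I genes, stood at 6.72 and 8.25 FPKM (interval 0.849 to 1.78), and Stat2, a mediator of type I interferon signals, at 7.72 and 7.10 FPKM (interval 0.679 to 1.24). With equal sums of FPKM, the median of all protein-coding genes moved from -0.02 to -0.20.

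Class II genes, which present peptides from outside the cell and are the mark of professional antigen-presenting cells, had a median of -0.23 over 14 genes, with none past 2-fold. The interval of H2-DMa, a class II peptide editor, lay below 1, at 6.07 FPKM in GFP and 3.12 in NeuroD1 (interval 0.287 to 0.892 at the fewer reads its values allow). H2-DMb2 stood at 8.21 and 7.80 FPKM and Lgmn, a lysosomal protease, at 6.82 and 7.73 FPKM. Ifi30, a lysosomal reductase, stood at 8.31 and 4.70 FPKM (interval 0.224 to 1.33). Chosen after their values were seen, Cd74, the class II invariant chain, stood at 3.53 and 3.64 FPKM and H2-Ab1 at 1.66 and 2.82 FPKM, all under the chemoreceptor 95th percentile.

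**Figure D5:**
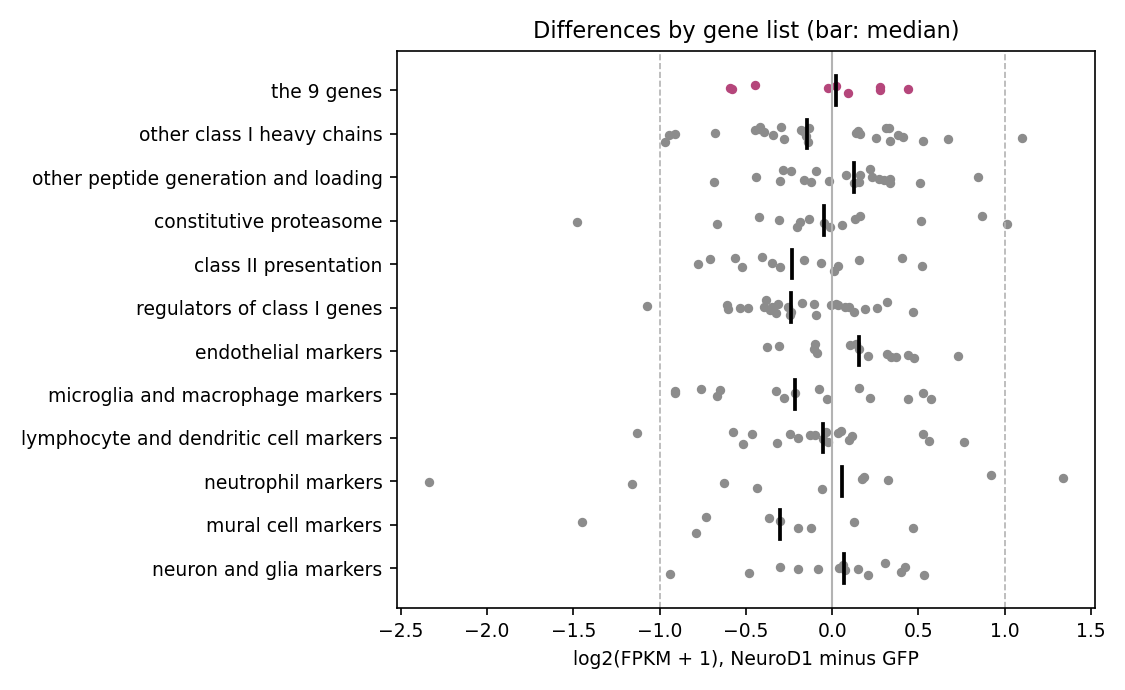
Difference in log2(FPKM + 1), NeuroD1 minus GFP, for the 9 genes and for each measured gene of the pathway and marker lists (points, spread vertically for sight), with list medians as bars and dashed lines at -1 and 1. List medians lie between -0.30 and 0.16, and all of them, with the 0.02 of the 9 genes, lie below 0 once the sums of FPKM are made equal. That scaling moved the median of all protein-coding genes from -0.02 to -0.20. It was -0.02 with the same sum of reads of genes at or under 1000 FPKM. Division by the median ratio of protein-coding genes gave -0.01.

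Class I genes are used by nearly all cell types, and leukocytes carry more than most, so marker levels are given here. The 15 microglia and macrophage markers summed to 57.5 FPKM in GFP and 52.8 in NeuroD1, with a median difference of -0.22. Tyrobp, an adaptor of myeloid receptors, read 11.5 and 17.7 FPKM. The lysosomal protein Cd68 stood at 9.004 and 4.89 FPKM. C1qc, a complement chain, stood at 1.88 and 0.531 FPKM. The 20 lymphocyte and dendritic cell markers summed to 73.7 and 70.3 FPKM, with a median of -0.05. Lck, a T cell kinase, stood at 8.35 and 8.58 FPKM and the receptor Flt3 at 4.47 and 2.82 FPKM (interval 0.402 to 0.976). Cd3d and Ncr1, with the largest differences, stood at 1.25 and 2.83 FPKM and at 2.65 and 0.666 FPKM. Of these 2 lists, 5 of 15 and 7 of 20 genes lay above the chemoreceptor 95th percentile in GFP, and 3 of 15 and 4 of 20 in NeuroD1. The mark itself was higher in NeuroD1. A gene at 4.39 FPKM in GFP, next to the mark, lay above 70.0% of protein-coding genes. In NeuroD1 a gene at 4.77 FPKM, next to the mark there, lay above 75.3%. The counts are thus near the shares of protein-coding genes at large.

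The 10 neutrophil markers summed to 68.9 and 72.2 FPKM with a median of 0.06 (-0.14 with equal sums of FPKM), and Elane, a granule protease, stood at 11.96 and 1.56 FPKM (26 and 3 reads, interval 0.0253 to 0.426). Retnlg stood at 3.72 and 10.96 FPKM, Ngp at 19.3 and 21.8 FPKM and S100a9 at 10.4 and 20.6 FPKM. The 10 mural cell markers summed to 34.5 and 28.9 FPKM with a median of -0.30. Acta2 and Myh11, of smooth muscle, stood at 7.63 and 10.9 FPKM and at 5.73 and 4.87 FPKM, and the intervals of Kcnj8 (0.0339 to 0.608) and Des (0.225 to 0.986) lay below 1. Vtn stood at 3.35 and 1.52 FPKM. The 14 neuron and glia markers summed to 69.6 and 76.7 FPKM with a median of 0.07 (-0.10 with equal sums of FPKM). Rbfox3 and Tubb3, of neurons, stood at 26.8 and 31.02 FPKM and at 8.97 and 12.4 FPKM. The interval of Slc17a7, a glutamate transporter, lay above 1 (1.04 to 2.41) and that of Aldh1l1, an astrocyte enzyme, below 1 (0.172 to 0.766). Endothelial markers had a median of 0.16 (-0.06 with equal sums of FPKM), and 5 of 15 intervals lay above 1 (against 5.93% of protein-coding genes). With equal sums of FPKM 1 interval lay above 1 (Egfl7) and 3 below, and with the median of genes of like mean FPKM subtracted 3 lay above and 2 below. With the same sum of reads of genes at or under 1000 FPKM, the same 5 lay above and 0 below. This was also so once ratios were divided by the median ratio of protein-coding genes. The 5 included Ly6c1, at 48.6 and 60.8 FPKM (interval 1.02 to 1.54), and Egfl7, at 5.56 and 9.88 FPKM (interval 1.1996 to 2.65). Vwf, Erg and Slco1a4 were the other 3, and Slc2a1, the glucose transporter, stood at 33.4 and 35.98 FPKM and Emcn, a sialomucin, at 3.26 and 4.93 FPKM. The part of these markers in the levels of the 9 genes was not tested.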

How the data were processed

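Expression was measured in 2 libraries of isolated mouse endothelial cells, 1 treated with GFP and 1 with NeuroD1. The authors deposited FPKM values for 53465 genes, with symbols. GRCm38, Bowtie2 2.3.5.1, DESeq and featureCounts 1.6.3 are listed, with no roles, in the submitters' processing notes.

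Reads were recovered with merged exon lengths from GENCODE M21 (GRCm38): the product of length and FPKM, divided by what 1 read is worth in that library, was whole within 0.02 in both for 51161 genes (95.7%). For list genes without a match, whole lengths within 1.5 times the annotated one were searched for reads whole within 0.001. This gave 1 pair for H2-K1 and for Tapbp and 3 for Psmb8. The fewest reads, with the widest interval, were used. Intervals are exact Clopper-Pearson at 95% on the deposited scaling. List genes counted as measured at 1 FPKM or more in one library or both. The steps were tested on simulated data.

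Named are Neurod1, the 9 genes, and of each other list the 2 with the highest mean FPKM, up to 2 with the largest differences and those whose interval excluded 1. A pair of marker genes that this rule names is not reported here. The 9 genes and all lists were chosen with earlier results of these data known. Alternatives covered pseudocount, scaling, FPKM minimum, trend with level, background and read recovery. Sequences are from RefSeq, and shared stretches from GENCODE M21 transcripts. The software was matplotlib 3.10.9, pandas 2.3.3, scipy 1.17.1, numpy 2.4.6 and Python 3.11.15.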

Additional observations from a re-analysis of the deposited data

How the results depend on the processing

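No paired analysis was possible because there is 1 library in a group, and for the same reason none could be left out. None of the 9 genes passed the threshold of 1 in the log2 difference under any setting run. All 77 differences of single genes under other settings stayed within the counting interval of the main value. Part of the 77 could not move, because a change of the FPKM minimum leaves the difference of a kept gene as it is. The median difference of the 9, 0.02, ranged from -0.20 (same sum of FPKM) to 0.28 (a minimum of 20 FPKM, which leaves B2m alone). Tap1, Psmb9 and B2m stayed above 0 and Tapbp, Psmb8 and Nlrc5 below 0 in every setting that kept them, while H2-K1, H2-D1 and Tap2, which lie near 0, took both signs. Scaling multiplies all ratios by 1 factor, so it does not test single genes. The count of intervals above 1, which was 1 (B2m), was 0 with the same sum of FPKM, with the same sum of reads of genes at or under 1000 FPKM and with the median of genes of like mean FPKM subtracted. It stayed 1 once ratios were divided by the median ratio of protein-coding genes. The count below 1, which was 1 (Nlrc5), was 3 with the same sum of FPKM, which adds Tapbp and Psmb8. Under that scaling 16.0% of protein-coding intervals lay below 1 and 1.70% above (shares by scaling were added after seeing the data). The count below 1 was 2 with Psmb8 at its middle or its most reads, settings chosen after seeing the data, and 0 at 5 FPKM in both libraries or 20 FPKM in one, which leave Nlrc5 out. The mural cell median, -0.30, was 0.47 at 5 FPKM in both libraries, where Acta2 alone is left. At that setting medians of other lists also changed sign: other heavy chains 0.16 (6 genes left), class II 0.01 (3), regulators 0.09 (6) and microglia 0.27 (2). The neutrophil median was 0.55 (2). At these reads, ratio intervals of the 9 genes span from 1.47-fold to 3.12-fold between their ends.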
